A study of Homo sapiens with 12 samples.

Results

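The 9 genes described here encode the enzymes that make deoxynucleotides for DNA synthesis or break them down: RRM1, RRM2 and RRM2B, the subunits of ribonucleotide reductase; TYMS, DUT, TK1 and DTYMK, which supply thymidine nucleotides; DCK, the kinase of deoxycytidine; and SAMHD1, a triphosphohydrolase. They were chosen by name as genes of this pathway, with earlier results of these data known, and every probe set annotated to 1 of them alone was read. This gave 25 of the 41097 probe sets with a single gene symbol and 9 of 19775 genes. Of the 25 probe sets, 19 passed the level filter used for the tests (log2 signal of at least 5 on at least 2 arrays) and 6 did not, so that all 9 genes were among the 9130 tested. No probe set of a member was annotated to another gene as well.

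Ribonucleotide reductase turns ribonucleotides into deoxyribonucleotides and is controlled by the deoxynucleotides themselves. When cells are given an excess of thymidine, the salvage kinase TK1 and the following kinase DTYMK turn it into dTTP, which inhibits the reduction of pyrimidine ribonucleotides. The pool of dCTP then runs down and replication forks stall, which is the basis of the thymidine block. In cycling cells many genes of this pathway are transcribed around the onset of S phase, with E2F factors among their regulators.

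HCT116, a human colorectal carcinoma cell line, was exposed to thymidine at 2 mM for 19 h, kept for 9 h in medium without it and exposed again for 16 h. After the wash, cells received DMSO, the vehicle, and were collected at 0, 2, 4 and 6 h and then hourly from 7 to 10 h, or nocodazole (labelled 0.1 mg/ml), which depolymerizes microtubules and holds cells in mitosis, and were collected hourly from 7 to 10 h. All cells were synchronized, and every one of the 12 conditions was hybridized to a single Affymetrix U133 Plus 2.0 array, so each treatment and time was measured once and no culture without a thymidine block was profiled. The 0 h array is labelled DMSO, and its label does not say whether its cells were collected before or just after thymidine was removed. It is read here as the end of the thymidine block, at which exposure to thymidine and a position at the G1/S border cannot be told apart. In RNA of a whole culture, fewer cells with a transcript and less of it per cell cannot be told apart either.

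Values are log2 GC-RMA signals per probe set, in which a difference of 1 is a doubling. The median over the kept probe sets was 8.59 to 9.13 on the DMSO arrays and 8.90, 8.99, 8.39 and 8.28 at 7, 8, 9 and 10 h with nocodazole, so the nocodazole arrays of 9 and 10 h stood below the rest. Of 8 epithelial and colorectal markers, 5 passed the filter (EPCAM, CDH1, KRT8, KRT18 and KRT19, all at 10.39 or above on every array), while VIL1, CDX2 and LGALS4 did not, nor did any of the 3 blood markers measured. Of the 6 stromal and endothelial markers, COL1A1 and ACTA2 passed, with medians of 8.33 and 8.28. The phase landmarks moved over the DMSO course: CCNB1, the mitotic cyclin, had its highest value, 13.91, at 8 h and 12.01 at 0 h, while CCNE2, a cyclin of the start of S phase, had 12.18 at 0 h, its lowest DMSO value, 8.78, at 7 h and 10.83 at 10 h. With nocodazole CCNE2 had 5.96, 6.55, 3.26 and 3.83 at 7, 8, 9 and 10 h.

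Promoter sequence was taken from RefSeq (GRCh38.p14) for 8 of the members, in 13 windows, each from 250 bases before to 50 bases after a start. RRM2B was left out of this search, and the counts of members and of their windows do not cover it. Both strands were searched for E2F words (TTTCGCGC, TTTGGCGC, TTTCCCGC, TTTGCCGC), for the CCAAT box (CCAAT) and for the cell cycle homology region, CHR (TTTGAA and also TTCGAA), and no match overlapped another. An E2F word was found in 3 members (TYMS, DUT and DCK), a CCAAT box in 5 (RRM1, RRM2, TK1, DTYMK and SAMHD1) and a CHR word in 3 (RRM1, DUT and DTYMK). Counted by window, an E2F word was in 3 of the 13, a CCAAT box in 6 and a CHR word in 3. Over all 35116 promoter windows of the table, 3.31% held an E2F word, 34.6% a CCAAT box and 16.4% a CHR word. A match is a run of letters and not a measured site.

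The last 150 bases before the start and the 50 after it are printed for the 3 members whose signal changed over the DMSO course and that were searched (RRM1, RRM2 and DCK), then for 3 that did not pass that test (TYMS, TK1 and DUT), with the matched words in capitals. Where RefSeq lists several starts, the one with the most matches is shown.
RRM1, chr11:4094535-4094734, plus strand: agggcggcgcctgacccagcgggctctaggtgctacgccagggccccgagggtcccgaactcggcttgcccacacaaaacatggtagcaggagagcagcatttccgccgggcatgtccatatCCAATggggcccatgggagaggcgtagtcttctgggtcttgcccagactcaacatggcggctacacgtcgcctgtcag
RRM2, chr2:10122589-10122788, plus strand: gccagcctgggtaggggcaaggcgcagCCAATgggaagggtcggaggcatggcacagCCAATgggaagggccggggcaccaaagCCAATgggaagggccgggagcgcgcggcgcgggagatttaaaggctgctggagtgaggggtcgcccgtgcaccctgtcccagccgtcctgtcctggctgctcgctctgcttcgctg
DCK, chr4:70993499-70993698, plus strand: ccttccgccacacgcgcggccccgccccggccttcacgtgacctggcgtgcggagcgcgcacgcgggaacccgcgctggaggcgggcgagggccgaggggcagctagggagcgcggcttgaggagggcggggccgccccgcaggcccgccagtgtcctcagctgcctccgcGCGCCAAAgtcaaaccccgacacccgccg
TYMS, chr18:657503-657702, plus strand: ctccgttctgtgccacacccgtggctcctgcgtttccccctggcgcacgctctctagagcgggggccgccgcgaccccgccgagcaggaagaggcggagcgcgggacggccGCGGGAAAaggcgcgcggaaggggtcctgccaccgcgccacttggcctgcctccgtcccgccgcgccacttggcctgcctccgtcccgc
TK1, chr17:78187003-78187202, minus strand: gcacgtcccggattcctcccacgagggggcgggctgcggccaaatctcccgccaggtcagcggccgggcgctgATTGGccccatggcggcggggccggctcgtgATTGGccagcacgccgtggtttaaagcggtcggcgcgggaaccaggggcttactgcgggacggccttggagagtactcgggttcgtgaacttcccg
DUT, chr15:48332047-48332246, plus strand: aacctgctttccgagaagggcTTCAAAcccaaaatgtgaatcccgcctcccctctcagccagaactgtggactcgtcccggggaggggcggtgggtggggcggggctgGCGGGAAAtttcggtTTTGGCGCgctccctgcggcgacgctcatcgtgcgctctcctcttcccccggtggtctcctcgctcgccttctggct
The RRM2 window held 3 CCAAT boxes, beginning 123, 93 and 66 bases before the start, all in the same orientation. The TK1 window held 2, beginning 77 and 46 bases before the start and read from the other strand. DUT had 2 E2F words, 42 and 27 bases before the start, and TYMS had 1 at 39 bases before it, while the single word of DCK lay 21 bases after the start. The searched members that changed thus held different kinds of word, as did those that did not pass.

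RRM1 and RRM2 had their highest DMSO signals at the early hours. RRM1 encodes the large subunit of ribonucleotide reductase, which carries the catalytic and regulatory sites. Its signal (201477_s_at) was 13.22, 13.28, 13.27, 13.07, 12.73, 12.51, 12.41 and 12.90 over the 8 DMSO times in order. It was level up to 4 h, lowest at 9 h and higher again at 10 h. RRM2 encodes the small subunit that supplies the radical during S phase. Its signal (209773_s_at) was 14.97, 14.86, 14.75, 14.58, 14.56, 14.41, 14.36 and 14.69 at the same hours, highest at 0 h and lower at each later array up to 9 h. A second RRM2 probe set, 201890_at, had 15.00, 15.01 and 14.77 at 0, 2 and 4 h and 14.34 to 14.71 afterwards.

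RRM2B encodes the small subunit induced by p53, which serves DNA repair and cells outside S phase. Its signal (223342_at, the only probe set) was 10.75, 10.74, 10.38, 10.31, 10.06, 10.03, 9.81 and 9.87 over the DMSO times. The order of the arrays followed time except for the last pair. DCK, which phosphorylates deoxycytidine and thereby feeds the salvage route to dCTP, had 11.07, 11.13, 10.71, 10.78, 10.22, 9.95, 10.06 and 10.29 (203302_at). The DCK signal was highest at 2 h and lowest at 8 h, and its 6 h array was slightly above its 4 h array.

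TYMS encodes thymidylate synthase, which makes dTMP from dUMP. Its signal (202589_at) was 14.65, 14.55, 14.64, 14.60, 14.35, 14.38, 14.35 and 14.62 over the DMSO times, a span of 0.30. DUT encodes the dUTPase that keeps uracil out of DNA and provides dUMP, and it had 12.49, 12.49, 12.29, 12.51, 12.15, 12.02, 12.19 and 12.49 (208956_x_at, of a class of probe sets that may bind other transcripts). TK1, the cytosolic thymidine kinase that feeds on the added thymidine, had 12.95, 12.95, 12.91, 12.89, 12.66, 12.51, 12.58 and 12.99 (1554408_a_at). For these 3 probe sets the arrays from 7 to 9 h were the 3 lowest and the 10 h array was back within 0.05 of the 0 h array. After quantile normalization 0 h was above 10 h by 0.07 for TYMS, 0.21 for DUT and 0.15 for TK1. The other kept TYMS probe set, 1554696_s_at, was highest at 7 h with 12.08. DTYMK, which turns dTMP into dTDP, had 10.97, 10.95, 11.04, 11.27, 11.03, 10.75, 10.62 and 10.94 (1553984_s_at) with its highest DMSO array at 6 h.

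SAMHD1 breaks deoxynucleoside triphosphates down to deoxynucleosides and so limits their pools. Its signal (234987_at) was 9.72, 9.67, 9.48, 9.70, 10.07, 9.39, 9.34 and 9.77 over the DMSO times, with no order by time for this probe set. The SD between neighbouring DMSO times was 0.119 (TYMS) to 0.268 (DCK) log2 units for the 9 genes, 0.242 for SAMHD1.

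**Figure D1:**
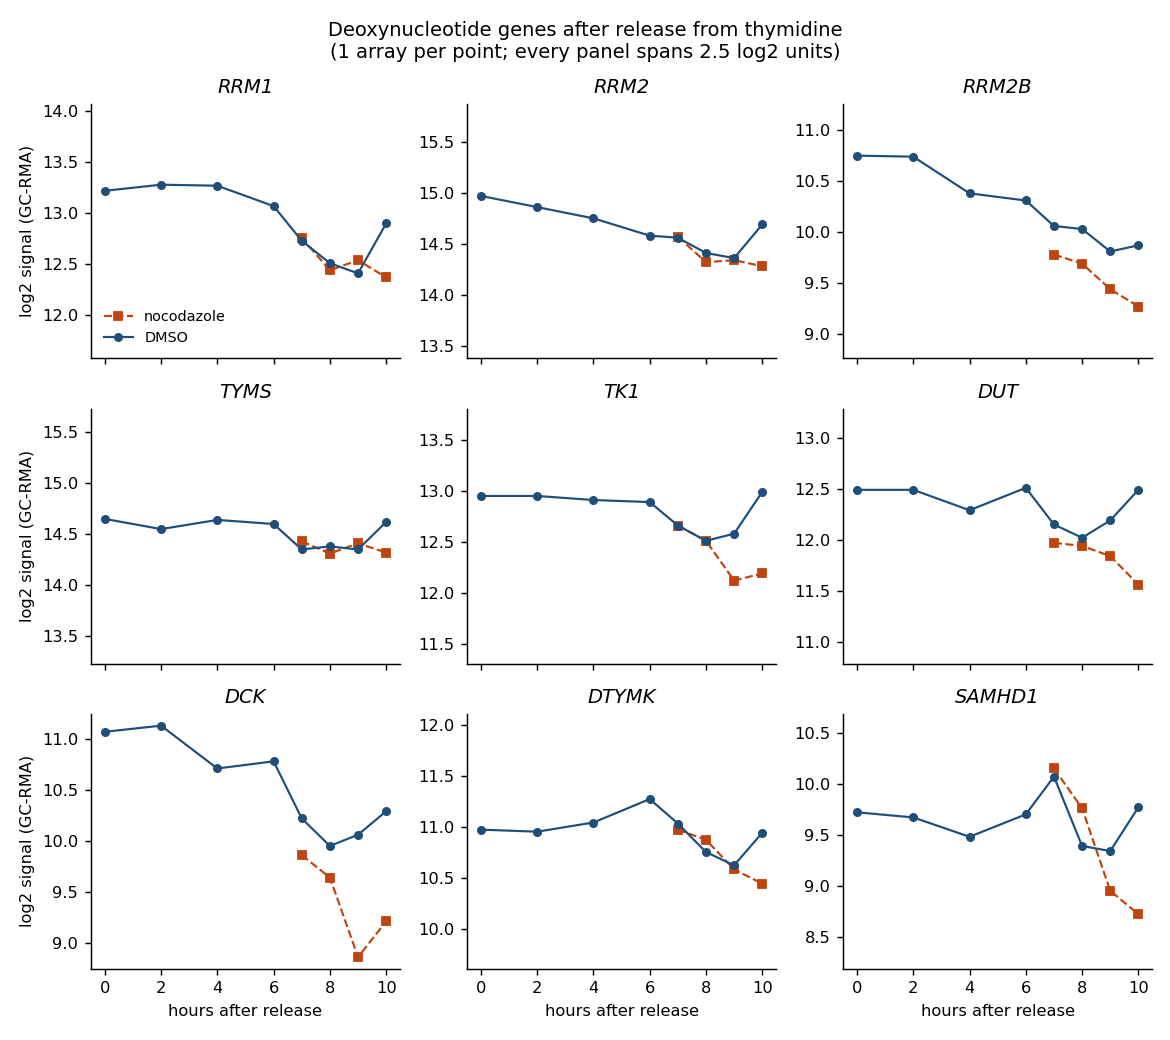
Log2 signal (GC-RMA) of the probe set that represents each of the 9 genes against hours after release, with nocodazole (orange squares, dashed) and with DMSO (blue circles), 1 array per point and 2.5 log2 units on every vertical axis. RRM1, RRM2, RRM2B and DCK had lower signals late than early with DMSO, and DCK was lower with nocodazole at all 4 hours.

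The question at 0 h was whether the genes differed at the end of the thymidine block. No member stood apart there from the next array. The differences 0 h minus 2 h were 0.10 for RRM2 and for TYMS, 0.05 for SAMHD1, 0.03 for DTYMK, 0.01 for RRM2B, -0.01 for DUT and -0.06 for RRM1 and DCK, and TK1 differed by less than 0.01. Their median was 0.01, against -0.01 over all genes. All were smaller than the SD of their own gene around its window means, which is that of 1 array and not of a difference between arrays. Of the 9 members 0 differed by 1 or more, where 0.854% of all genes were higher at 0 h by that much and 1.74% were lower. Over all 19 probe sets of the members the differences ran from -0.18 (SAMHD1, 204502_at) to 0.26 (DUT, 209932_s_at).

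Set against 4 h, the 0 h array was higher for RRM2B by 0.37, for DCK by 0.36, for SAMHD1 by 0.24 and for RRM2 by 0.22, and the other 5 members differed by -0.07 to 0.19. Set against 10 h, when CCNE2 was again high, the members differed among themselves. RRM2B was higher at 0 h by 0.88 and DCK by 0.78, RRM1 by 0.32 and RRM2 by 0.27, whereas TYMS, TK1, DUT, DTYMK and SAMHD1 differed by -0.05 to 0.03. The representative probe sets of all 9 lay above the median of all kept probe sets, which was -0.32, and this median was 0.07 after quantile normalization, where RRM2B was higher at 0 h by 1.29 and DCK by 1.18. On that scale RRM1 differed by 0.52, DTYMK by 0.42, SAMHD1 by 0.41, RRM2 by 0.33, DUT by 0.21, TK1 by 0.15 and TYMS by 0.07, so DTYMK and SAMHD1 then lay above RRM2. Of the values as deposited, 0 members differed by 1 or more, against 2.62% of all genes that were higher at 0 h and 11.5% that were lower. Over all 19 probe sets of the members these differences ran from -0.53 (DTYMK, 203270_at) to 0.88 (RRM2B). TYMS 1554696_s_at (-0.40) and SAMHD1 1559883_s_at (-0.43) and 204502_at (-0.33) also lay below the median of -0.32. The second probe set of RRM1 had -0.21 and that of RRM2 had 0.54. With 1 array at each time these are differences of single arrays and have no test.

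**Figure D2:**
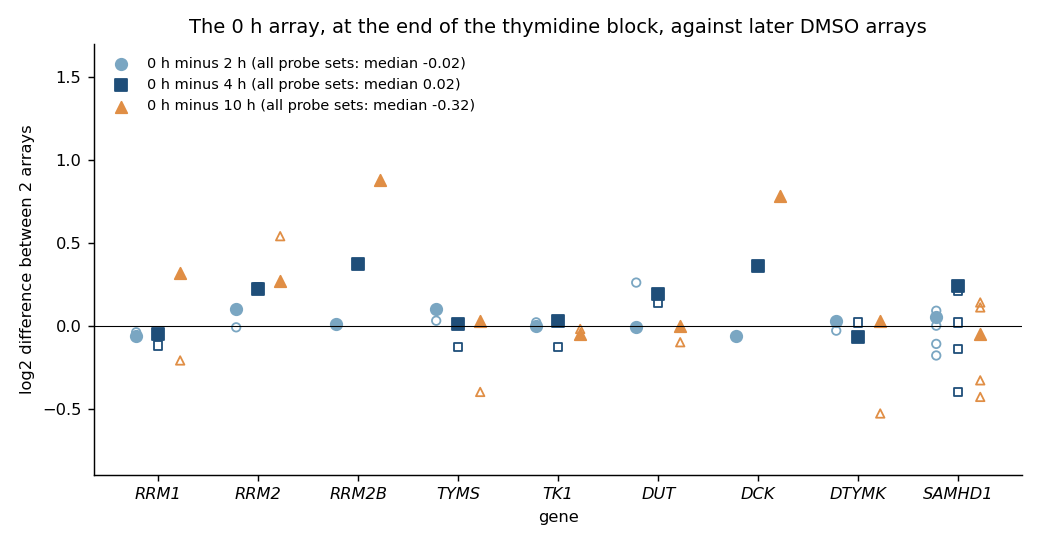
Log2 difference of the 0 h array minus the DMSO arrays of 2 h (circles), 4 h (squares) and 10 h (triangles) for each gene; filled symbols are the probe sets that represent the genes and open symbols their other kept probe sets. The differences from 2 h lie between -0.18 and 0.26, and those of RRM2B and DCK from 10 h are 0.88 and 0.78.

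Across the 8 DMSO times, a smooth curve of time (natural spline, limma F test, Benjamini-Hochberg adjustment over all genes) was called at an adjusted p under 0.05 for 4 of the 9 members, against 21.8% of all genes. RRM2B had a fitted range of 0.95 (adjusted p = 0.0119), RRM1 of 0.80 (adjusted p = 0.0159), DCK of 0.97 (adjusted p = 0.0168) and RRM2 of 0.50 (adjusted p = 0.0245). The second probe set of RRM2 changed as well (range 0.61, adjusted p = 0.00992 when every probe set was fitted). TK1, TYMS, DUT, DTYMK and SAMHD1 had fitted ranges of 0.41, 0.27, 0.34, 0.34 and 0.15 and adjusted p of 0.143, 0.226, 0.326, 0.577 and 0.989. After quantile normalization 6 members and 3665 genes were called, TK1 (range 0.31, adjusted p = 0.0176) and DTYMK (range 0.55, adjusted p = 0.028) among them, and SAMHD1 had a range of 0.52 (adjusted p = 0.156). The median fitted range was 0.41 over the members and 0.55 over all genes. The 4 calls rested on few arrays: without the 0 h array only RRM1 passed (adjusted p = 0.0263), without 8 h only RRM2B (adjusted p = 0.034), without 2 h RRM1 and RRM2, and without 9 h RRM2 and RRM2B.

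Between windows of the DMSO course, RRM2B was the single member that passed. The arrays of 9 and 10 h had 9.81 and 9.87 and those of 0, 2 and 4 h had 10.75, 10.74 and 10.38, a difference of -0.78 ± 0.16 (SE, adjusted p = 0.0212 in limma), and it fell in that comparison where 2.45% of all genes were called lower and 11.9% higher (224 and 1082 genes, which were 1247 and 836 after quantile normalization). The call was lost without the arrays of 0, 2, 9 or 10 h, with adjusted p of 0.0508, 0.0736, 0.062 and 0.145. Without the 6 h array RRM1 and DCK were called too, where 376 of all 9130 genes were called lower and 1271 higher. DCK had a mean of 10.18 at 9 and 10 h, against 10.97 at 0 to 4 h (difference -0.80 ± 0.25, adjusted p = 0.062), and RRM1 had 12.65, against 13.26 (difference -0.61 ± 0.18, adjusted p = 0.0596). RRM2 had 14.53, against 14.86 (difference -0.33 ± 0.12, adjusted p = 0.0876), while its second probe set was lower by 0.49 at an adjusted p of 0.0278 in the fit of every probe set. For 5 members (RRM1, RRM2, RRM2B, DCK and DTYMK) every array of 9 and 10 h was below every array of 0 to 4 h, as for 20.2% of all genes. TYMS, TK1, DUT, DTYMK and SAMHD1 had differences of -0.13, -0.15, -0.09, -0.21 and -0.07, each with an adjusted p of 0.425 or more. After quantile normalization RRM2B, RRM1, DCK and DTYMK were called, DTYMK with -0.42 (adjusted p = 0.0458), and SAMHD1 had -0.40 (adjusted p = 0.0929).

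At 6 to 8 h, set against 0 to 4 h, 0 members were called, where 5.41% of all genes were called higher and 0.635% lower (494 and 58 genes, which were 464 and 420 after quantile normalization). DCK had a mean of 10.32, against 10.97 (difference -0.66 ± 0.22, adjusted p = 0.112), RRM1 had 12.77, against 13.26 (-0.49 ± 0.17, adjusted p = 0.111), RRM2B had 10.13, against 10.62 (-0.49 ± 0.15, adjusted p = 0.082), and RRM2 had 14.52, against 14.86 (-0.34 ± 0.10, adjusted p = 0.0871). These 4 had an unadjusted p under 0.05, and RRM1, RRM2B and DCK were called without the 6 h array and RRM2B without the 4 h array (adjusted p = 0.0498). Of all 9130 genes, 314 were called lower and 952 higher without 6 h, and 128 lower and 420 higher without 4 h. RRM1, RRM2, RRM2B and TK1 had all 3 arrays of 6 to 8 h below the 3 of 0 to 4 h, as had 9.98% of all genes. TK1, DUT and TYMS differed by -0.25 ± 0.13, -0.20 ± 0.15 and -0.17 ± 0.10, and DTYMK and SAMHD1 by 0.03 ± 0.15 and 0.09 ± 0.20. The median difference was -0.25 over the members and 0.06 over all genes. From 6 to 8 h on to 9 and 10 h, limma called 0 members and 0.0% of all genes (470 genes had an unadjusted p under 0.05), and the median difference of the members was -0.11.

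**Figure D3:**
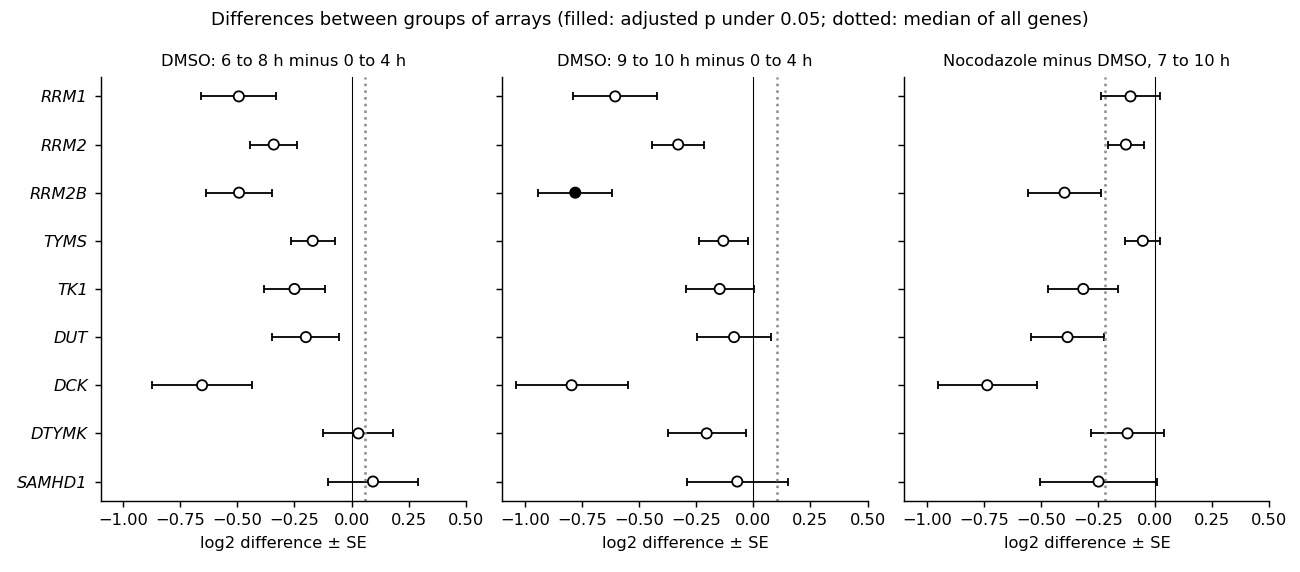
Log2 differences with their SE for the 9 genes, for 6 to 8 h minus 0 to 4 h and 9 to 10 h minus 0 to 4 h with DMSO and for nocodazole minus DMSO at 7 to 10 h; filled points had an adjusted p under 0.05 and the dotted line is the median of all genes. RRM2B in the middle panel is the only filled point, and DCK has the lowest value in each panel.

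Probe sets of 1 gene did not always run together. Over the 8 DMSO arrays Pearson's r between both kept probe sets was 0.93 for TK1, 0.85 for RRM2, 0.79 for DUT and 0.33 for DTYMK. It was -0.51 for RRM1, whose probe set 201476_s_at stayed between 11.11 and 11.42, and -0.62 for TYMS, whose probe set 1554696_s_at had its highest value, 12.08, at 7 h. With the mean of its probe sets RRM1 had a fitted range of 0.36 over the course and did not pass (adjusted p = 0.151). The TYMS gene shares 10593 bases with its neighbour ENOSF1 in RefSeq. These correlations are over arrays of 1 time course and describe these probe sets.

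Over the same 8 arrays the representative probe sets of RRM2B and DCK had r = 0.93, those of RRM1 and DCK 0.93, those of TYMS and TK1 0.93 and those of TK1 and DUT 0.92. SAMHD1 had r of 0.11 to 0.59 with the other members. The pairs share the arrays and their overall level, so r is a description only.

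Nocodazole was set against DMSO at the same hours. DCK had 9.86, 9.64, 8.86 and 9.21 at 7, 8, 9 and 10 h with nocodazole, against 10.22, 9.95, 10.06 and 10.29 with DMSO. The groups did not overlap, and the difference was -0.74 ± 0.22 (SE, unadjusted p = 0.0112, adjusted p = 0.386 in limma with time as a block). RRM2B had 9.78, 9.69, 9.44 and 9.27 with nocodazole, against 10.06, 10.03, 9.81 and 9.87 with DMSO (difference -0.40 ± 0.16). DUT had 11.97, 11.94, 11.84 and 11.56 with nocodazole, against 12.15, 12.02, 12.19 and 12.49 with DMSO (difference -0.39 ± 0.16). These 3 members were lower without overlap, as were 7.16% of all genes, and both RRM2B and DUT had an adjusted p of 0.386.

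None of the 9 members passed the test, and limma called 0.0% of all genes (953 had an unadjusted p under 0.05). The median difference of all genes was itself -0.22, and that of the members -0.25. Relative to the other genes, 6.3% had a lower difference than DCK, 25.6% a lower one than RRM2B and 27.1% a lower one than DUT. TK1 differed by -0.32 ± 0.15, SAMHD1 by -0.25 ± 0.26, RRM2 by -0.13 ± 0.08, DTYMK by -0.12 ± 0.16, RRM1 by -0.11 ± 0.13 and TYMS by -0.06 ± 0.08. After quantile normalization the median of all genes was -0.003, and DCK had a difference of -0.46, DUT of -0.24, RRM2B of -0.12, SAMHD1 of 0.04 and DTYMK of 0.12. The treatments then overlapped for RRM2B, which was higher with nocodazole by 0.02 at 9 h and 0.17 at 10 h. The share of all genes without overlap was not computed on that scale. Taken alone, 9 and 10 h gave a call for DCK (difference -1.14, adjusted p = 0.00067) and SAMHD1 (-0.72, adjusted p = 0.0365) with 1 residual degree of freedom. In that fit 2950 of the 9130 genes were called lower and 414 higher, with a median of all genes of -0.44. With 7 and 8 h alone 0 members were called.

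**Figure D4:**
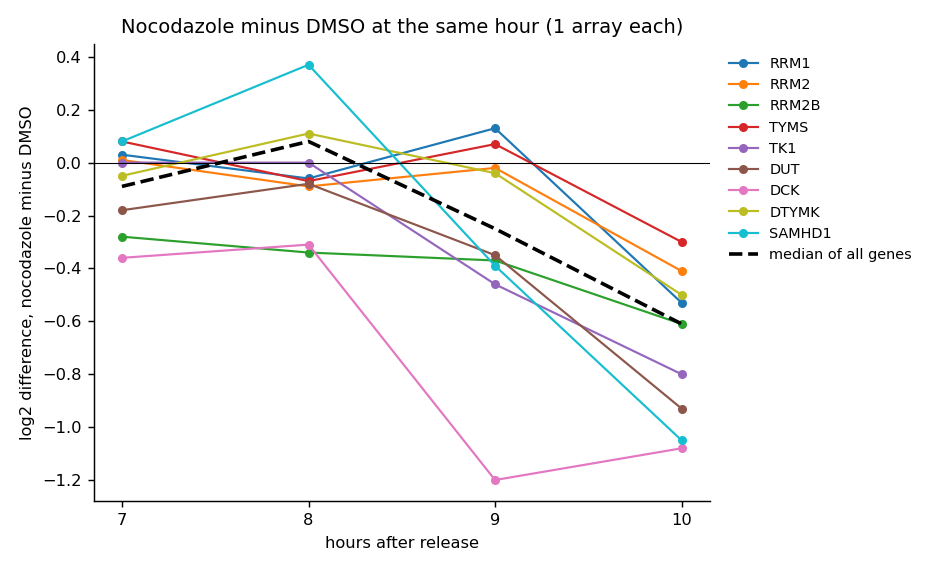
Log2 difference, nocodazole minus DMSO at the same hour, for the 9 genes (lines with points) and the median of all genes (black dashes) at 7, 8, 9 and 10 h, with 1 array per treatment and hour. The median of all genes is -0.61 at 10 h, and DCK lies at -1.20 at 9 h.

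At 10 h, where the median of all genes was lowest, 8 of the 9 members also had their lowest difference, and DCK had its own at 9 h. The median of all genes was -0.09, 0.08, -0.25 and -0.61 at 7, 8, 9 and 10 h. DCK differed by -0.36, -0.31, -1.20 and -1.08 at these hours. By the representative probe sets it was the single member lower by 1 or more at 9 h, as were 9.11% of all genes. At 10 h DCK and SAMHD1 (-1.05) were, as were 25.0% of all genes, and all 9 members were lower with nocodazole. Among the other kept probe sets SAMHD1 204502_at had -1.78 at 9 h. At 10 h SAMHD1 204502_at had -2.77, DTYMK 203270_at -1.58, DUT 209932_s_at -1.11 and SAMHD1 235964_x_at -1.03. After quantile normalization these 10 h differences were -2.25, -0.77, -0.49 and -0.24. TK1 had 12.66, 12.51, 12.12 and 12.19 with nocodazole, against 12.66, 12.51, 12.58 and 12.99 with DMSO, so that the treatments had the same signal at 7 and 8 h and were apart by -0.46 and -0.80 at 9 and 10 h. RRM1, RRM2 and TYMS differed by -0.09 to 0.13 from 7 to 9 h and by -0.53, -0.41 and -0.30 at 10 h. After quantile normalization, which removes the lower overall level of the late nocodazole arrays, DCK differed by -0.81 at 9 h and -0.32 at 10 h and SAMHD1 by 0.03 and -0.25.

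An interaction asked whether the nocodazole difference was the same at 9 and 10 h as at 7 and 8 h. It was called for 0 members, where 10.3% of all genes were called lower and 1.99% higher (940 and 182 genes, which were 347 and 372 after quantile normalization). TK1 had a late minus early difference of -0.63 ± 0.21 (adjusted p = 0.0624), SAMHD1 of -0.94 ± 0.32 (adjusted p = 0.0673) and DCK of -0.81 ± 0.28 (adjusted p = 0.0718). The second kept probe set of DTYMK, 203270_at, had -1.15 ± 0.36 (adjusted p = 0.0663 in the limma fit of every probe set), while its representative one had -0.30. The median was -0.30 over the members and -0.44 over all genes. After quantile normalization, with a median of all genes of 0.008, TK1 alone of the 9 passed (-0.40, adjusted p = 0.0279). Without the 9 h arrays 8 members were called lower, all but RRM2B, and so were 3818 of the 9130 genes, with a median of all genes of -0.61.

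SAMHD1 differed between its probe sets. The probe set 204502_at had 8.49, 8.88, 6.66 and 5.35 at 7, 8, 9 and 10 h with nocodazole, against 8.86, 8.16, 8.43 and 8.12 with DMSO. Its late minus early difference was -2.46 ± 0.48 (adjusted p = 0.0291 in the fit of all 15030 kept probe sets, of which 1572 were called). The nocodazole arrays of 9 and 10 h were below all 8 DMSO arrays, whose lowest value was 7.59. The same held for 234987_at, 235529_x_at and 235964_x_at, and not for 1559883_s_at. These arrays had the lowest medians of the series, and the share of all probe sets with this order was not computed. The other 4 kept probe sets of SAMHD1 had late minus early differences of -0.72 to -0.94 and adjusted p of 0.0786 to 0.206. Over the DMSO course 1559883_s_at had 6.15 to 6.17 up to 4 h and 6.58 to 7.33 afterwards, while the x_at probe sets 235529_x_at and 235964_x_at had their highest values at 6 and 4 h. The probe set 204502_at had 7.59 to 7.98 up to 4 h and 8.12 to 8.86 afterwards (r = 0.85 with 1559883_s_at). From 0 to 4 h to 6 to 8 h these 2 rose by 0.63 and 0.67 (204502_at first, adjusted p of 0.113 and 0.103 in limma). After quantile normalization both were lower at 10 h (7.78 and 6.28) than at 0 h (7.94 and 6.34).

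**Figure D5:**
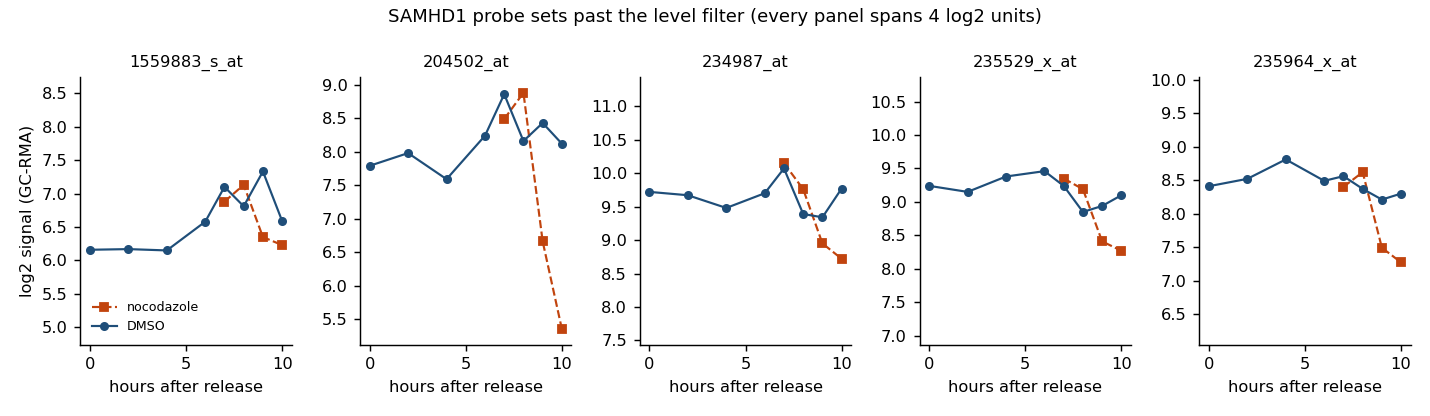
Log2 signal (GC-RMA) of the 5 SAMHD1 probe sets past the level filter against hours after release, with nocodazole (orange squares, dashed) and DMSO (blue circles), 1 array per point and 4 log2 units on every vertical axis. In the values as deposited all 5 were lower with nocodazole at 9 and 10 h, most so 204502_at with 5.35 at 10 h; after quantile normalization 1559883_s_at was higher at 10 h by 0.32 and 234987_at at 9 h by 0.03.

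The genes around the members were read from 5 lists of 85 genes, of which 63 passed the level filter and 13 (20.6%) changed over the DMSO course, a share near the 21.8% of all genes. In the list of the folate and thymidylate cycle, which also holds the thiopurine methyltransferase TPMT, 8 of 14 passed the filter and 1 changed. This was SLC19A1, the reduced folate carrier, with 10.41 at 10 h and 7.71 at 0 h (adjusted p = 0.013). Of the other salvage kinases 15 of 20 passed the filter and 1 changed, the mitochondrial adenylate kinase AK4, with 10.49 at 10 h and 8.99 at 0 h (adjusted p = 0.00944).

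Among genes of nucleotide clearance and deamination, 13 of 16 passed the filter and 4 changed. DCTD, the dCMP deaminase that supplies dUMP, had 10.99 at 10 h and 10.05 at 0 h (adjusted p = 0.011), and DCTPP1, a dCTP pyrophosphatase, had 11.68 at 10 h and 11.03 at 0 h (adjusted p = 0.0139). UNG, the uracil DNA glycosylase, had 12.22 at 0 h, 11.51 at 4 h and 12.61 at 10 h (adjusted p = 0.0109). Its nocodazole arrays had 11.20, 11.17, 10.74 and 10.73, against 11.53, 11.65, 11.90 and 12.61 with DMSO at the same hours.

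Of the genes of pyrimidine and purine synthesis 15 of 18 passed the filter and 3 changed. PPAT, the first enzyme of purine synthesis, had 12.32 at 10 h and 10.97 at 0 h. PFAS, a later enzyme of that route, had 9.28 at 10 h and 8.16 at 0 h, and CAD, which starts pyrimidine synthesis, had 10.87 at 10 h and 10.03 at 0 h (adjusted p of 0.0183, 0.0245 and 0.0387 for the 3 genes). Of redox partners and nucleoside transporters 12 of 17 passed and 4 changed. GLRX, a glutaredoxin that can reduce ribonucleotide reductase, was highest at 4 h with 11.69 and lowest at 9 h with 11.01 (adjusted p = 0.0143). TXNRD1, the thioredoxin reductase, was highest at 4 h with 13.96 and lowest at 9 h with 13.24 (adjusted p = 0.0242). SLC29A1, the equilibrative nucleoside transporter through which thymidine enters cells, had 9.33 at 0 h, 8.82 at 2 h and 10.58 at 10 h (adjusted p = 0.016).

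Between 9 to 10 h and 0 to 4 h, 10 of the 63 genes in these lists were called, all higher, where 11.9% of all genes were called higher and 2.45% lower. The balance of higher and lower calls over all genes turned with quantile normalization, as given above, and no contrast with the members is drawn from it. The list medians of that difference were 0.09 to 0.27, against -0.21 for the members and 0.10 for all genes. With nocodazole 0 genes of these lists were called, and their medians were -0.20 to -0.33, against -0.22 for all genes.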

How the data were processed

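Expression was read from all 12 Affymetrix U133 Plus 2.0 arrays, 8 with DMSO and 4 with nocodazole. The authors deposited log2 signals per probe set computed with GC-RMA, for which no version is given. Normalization between arrays sets the overall level, so the comparisons were repeated after quantile normalization. The number of arrays limits the precision.

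The members and lists were chosen with earlier results of these data known. Of 54675 probe sets, 41097 had 1 gene symbol, 1801 had several and 11777 had none in the platform annotation. A probe set entered the tests if it had 1 symbol and reached a log2 of 5 on 2 or more arrays (15030 probe sets, 9130 genes), and the probe set with the highest mean represented a gene. All members were named. From each list, up to 3 genes with the smallest p of the course among those that passed were named.

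Tests were run in R 4.3.3 with limma 3.58.1 (eBayes with its trend option), and p-values were adjusted over all genes (Benjamini-Hochberg, threshold 0.05). The DMSO course was a natural spline with 3 degrees of freedom. Windows were compared in 1 fit of the 8 DMSO arrays, and nocodazole with DMSO with time as a block. Neighbouring times stand in for replicates, so p-values measure that spread and not the spread between cultures. Scripts were tested on simulated data. There the course test called 12% of genes changed by 1 log2 unit and 82% of those changed by 2. The late minus early test called 6% and 63%. A gene that was not called in these 2 tests may therefore still have changed. The alternatives varied the filter (none, or 7), the scaling (quantile, or array medians subtracted), how a gene was represented (its mean, or each probe set), the intensity trend, the spline (2 degrees of freedom), the windows, the arrays sharing a spread, the time block and the hours included, each hour being dropped once. Splitting the nocodazole hours into 7 to 8 h and 9 to 10 h was added after the data had been seen. A search of the protein sequences was planned and not run. Plots were drawn with matplotlib 3.10.9 in Python 3.11.15.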

Additional observations from a re-analysis of the deposited data

Results flagged for a closer look

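The nocodazole minus DMSO difference of SAMHD1 at 204502_at was lower at 9 and 10 h than at 7 and 8 h by an interaction of -2.46 (adjusted p = 0.0291 in limma, values as deposited). For this probe set the interaction was not tested after quantile normalization or with an hour left out. The signal with nocodazole was below that with DMSO at 7 h (8.49 and 8.86), above it at 8 h (8.88 and 8.16), and below it at 9 h (6.66 and 8.43) and 10 h (5.35 and 8.12). The median of all genes differed by -0.25 at 9 h and -0.61 at 10 h in the same arrays, and the differences of 204502_at after quantile normalization were -1.36 and -2.25. Each condition had 1 array, so no array could be tested as an outlier within its group.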

How the results depend on the processing

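Nocodazole and DMSO arrays were paired by hour, with time as a block, and the fit without that block called 0 members and 8 genes. The labels carry no replicate numbers by which arrays could be paired otherwise. Counts are of calls among the 9 members and then among all genes. Leaving out 1 hour gave 1 to 4 members and 862 to 2220 genes for the DMSO course, 0 to 3 and 0 to 1266 for 6 to 8 h minus 0 to 4 h, 0 to 0 and 0 to 1 for 9 to 10 h minus 6 to 8 h, 0 to 3 and 0 to 1647 for 9 to 10 h minus 0 to 4 h, 0 to 0 and 0 to 401 for nocodazole minus DMSO, and 0 to 8 and 297 to 4047 for its late minus early difference.

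For the course, quantile normalization called 6 members and 3665 genes and the fit of every probe set 3600. For 6 to 8 h minus 0 to 4 h, quantile normalization called 3 members and 884 genes, narrower windows 2 and 1112 and the spread shared by 12 arrays 1 and 1136. There the mean of probe sets called 1 member and 746 genes, no filter 65 genes and every probe set 1200. For 9 to 10 h minus 6 to 8 h, the shared spread called 1 gene. For 9 to 10 h minus 0 to 4 h, the filter at 7 called 3 members and 1458 of 7712 genes, quantile normalization 4 and 2083 and the mean 2 and 1834. There narrower windows called 3 members and 1512 genes, the shared spread 3 and 1996, no filter 557 genes and every probe set 3072. For nocodazole minus DMSO, the filter at 7 called 11 genes, quantile normalization 36, no time block 8, 7 and 8 h alone 25, and 9 and 10 h alone 2 members and 3364 genes. For the late minus early difference, no filter called 3 members and 10073 genes, the filter at 7 called 3 and 1742, quantile normalization 1 and 719, and the mean 1 and 1714. The median of the members was 0.19 for 0 h minus 4 h in place of 2 h, and for 0 h minus 10 h it was 0.41 after quantile normalization and 0.55 after subtracting the median of each array.

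Signs of single genes turned as follows. For 6 to 8 h minus 0 to 4 h, TYMS was 0.04 with the mean of probe sets, DTYMK was -0.09 after quantile normalization, -0.10 with narrower windows and -0.10 without 6 h, and SAMHD1 was -0.11 after quantile normalization and -0.08 without 7 h. For 9 to 10 h minus 0 to 4 h, the mean of probe sets gave 0.10 for TYMS, 0.05 for DTYMK and 0.13 for SAMHD1, and without 9 h TYMS was 0.00, TK1 0.06, DUT 0.07 and SAMHD1 0.14. For nocodazole minus DMSO, quantile normalization gave 0.12 for DTYMK and 0.04 for SAMHD1, leaving out 10 h gave 0.03 for RRM1 and for TYMS, 0.01 for DTYMK and 0.02 for SAMHD1, and 7 and 8 h alone gave 0.01 for TYMS, 0.03 for DTYMK and 0.22 for SAMHD1. For the late minus early difference, quantile normalization gave 0.02 for RRM1, 0.43 for RRM2B and 0.19 for DTYMK, and leaving out 10 h gave 0.15 for RRM1, 0.02 for RRM2 and 0.06 for TYMS. With 1 hour left out, 6 to 8 h minus 0 to 4 h ran over -0.10 to 0.16 for DTYMK and -0.08 to 0.26 for SAMHD1. With 1 hour left out, 9 to 10 h minus 0 to 4 h ran over -0.27 to 0.00 for TYMS, -0.35 to 0.06 for TK1, -0.24 to 0.07 for DUT and -0.28 to 0.14 for SAMHD1. With 1 hour left out, nocodazole minus DMSO at 7 to 10 h ran over -0.19 to 0.03 for RRM1, -0.10 to 0.03 for TYMS, -0.20 to 0.01 for DTYMK and -0.45 to 0.02 for SAMHD1. With 1 hour left out, late minus early nocodazole difference ran over -0.51 to 0.15 for RRM1, -0.37 to 0.02 for RRM2 and -0.30 to 0.06 for TYMS. The cause was not tested.

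Over all alternatives, 601 single values kept their direction and side of the threshold or, where untested, moved by less than the spread, 43 passed it, 17 no longer did, 28 changed sign and 22 untested values moved by more than the spread. In the fit of every probe set, each gene entered these counts with its representative probe set, so its differences could not change sign. For 9 to 10 h minus 0 to 4 h, other kept probe sets did: RRM1 201476_s_at had 0.17, TYMS 1554696_s_at 0.33, DUT 209932_s_at 0.02 and DTYMK 203270_at 0.31. SAMHD1 1559883_s_at had 0.80 and 204502_at 0.49. The other kept probe sets of RRM2, TK1 and SAMHD1 kept the sign. With 1 array per condition, neighbouring hours had to stand in for replicates, and a difference between cultures could not be measured. RRM2 did not pass in the course without the intensity trend (adjusted p = 0.129), nor RRM1 with a spline of 2 degrees of freedom (adjusted p = 0.0875). The fits on 7 and 8 h and on 9 and 10 h by themselves were added after the data had been seen and leave 1 residual degree of freedom.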

Other observations

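The genes whose pattern was most like that of RRM2 over the 12 arrays were CSE1L, ADI1 and CDKN1A, with Pearson's r of 0.971, 0.968 and 0.964. For TK1 they were MEA1, TECR and APEX2, with 0.988, 0.985 and 0.983. For SAMHD1 they were DUS1L, USP33 and CLCN3, with 0.959, 0.958 and 0.957, and after subtracting the median of each array these were 0.252, 0.615 and 0.825. The arrays share 1 culture system and their overall level, and r is a description.

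A DUT probe set under the level filter, 208955_at, had its highest value, 5.09, at 0 h, against 4.42 at 2 h and 4.35 to 4.83 on the later DMSO arrays. The other 5 probe sets under the filter were 1 for TYMS, 3 for DTYMK and 1 for SAMHD1, and none of them reached 5 on any array.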
